A study of Mus musculus with 2 samples.

Results

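The genes of MHC class I antigen presentation were followed by single-cell RNA sequencing in the bone marrow of 1 control mouse and 1 double knockout (DKO) mouse. The set holds 10 genes, B2m, H2-K1, H2-D1, Tap1, Tap2, Tapbp, Psmb8, Psmb9, Psmb10 and Nlrc5, taken by symbol from the 32285 genes of the count tables, and all 10 were found. The control mouse, whose library carries the label WT, was a littermate that was Ddx41 fl/fl, lacked VavCre and had normal cGas alleles. The DKO mouse was VavCre:Ddx41 fl/fl cGAS-/-. Ddx41, a DEAD-box DNA/RNA helicase, was thus deleted where the Vav promoter drives Cre, mainly in blood cells and to some extent in endothelium. The cytosolic DNA sensor cGas was absent in the germ line. Both mice were 2 months old, and marrow was flushed and sequenced with the Chromium Single Cell 3′ v3 kit. The study compared the marrow of these mice cell by cell to examine what Ddx41 does there. Since Ddx41 and cGas differed together, their contributions cannot be told apart.

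MHC class I molecules show fragments of the cell's own proteins to CD8 T cells. A heavy chain, encoded by H2-K1 or H2-D1, pairs with beta-2-microglobulin, the product of B2m. Peptides are cut by the proteasome, in which the inducible catalytic subunits Psmb8, Psmb9 and Psmb10 can take the place of the constitutive Psmb5, Psmb6 and Psmb7, and are carried into the endoplasmic reticulum by the transporter of Tap1 and Tap2. Tapasin, encoded by Tapbp, holds the empty class I molecule at that transporter. Nlrc5 is a transactivator of class I genes, and interferons raise most genes of this pathway. Nucleated erythroid cells carry class I molecules, and their levels decline as the cells mature.

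The promoters of the light chain, of both heavy chains and of Tap1 are shown because the regulatory letters of the class I pathway can be read in them. They are RefSeq sequences of build GRCm38.p6 and give the 250 bases before the annotated start, 5′ to 3′ on the strand of the gene. Capitals mark matches, on either strand, to a kappaB motif (GGGGATTCCC), an interferon-response motif (GAAANNGAAA or GAANNGAAA), the X2 motif (TGACG) and the Y motif (CCAAT, read as ATTGG on the other strand). The motifs were chosen after the sequences had been seen.
B2m: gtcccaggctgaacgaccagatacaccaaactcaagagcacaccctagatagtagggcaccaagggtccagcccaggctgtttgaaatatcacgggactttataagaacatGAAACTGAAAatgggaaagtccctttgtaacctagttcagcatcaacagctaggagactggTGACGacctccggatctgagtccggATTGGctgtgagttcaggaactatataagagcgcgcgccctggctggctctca
H2-K1: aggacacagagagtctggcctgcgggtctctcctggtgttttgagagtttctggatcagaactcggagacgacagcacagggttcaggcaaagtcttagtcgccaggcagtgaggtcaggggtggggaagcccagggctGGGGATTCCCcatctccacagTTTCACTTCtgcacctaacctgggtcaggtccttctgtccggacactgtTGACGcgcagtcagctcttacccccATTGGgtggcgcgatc
H2-D1: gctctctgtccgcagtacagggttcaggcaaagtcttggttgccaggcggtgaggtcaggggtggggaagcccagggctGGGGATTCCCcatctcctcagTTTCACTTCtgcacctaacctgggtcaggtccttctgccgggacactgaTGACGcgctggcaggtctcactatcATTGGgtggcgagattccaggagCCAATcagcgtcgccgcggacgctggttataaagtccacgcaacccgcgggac
Tap1: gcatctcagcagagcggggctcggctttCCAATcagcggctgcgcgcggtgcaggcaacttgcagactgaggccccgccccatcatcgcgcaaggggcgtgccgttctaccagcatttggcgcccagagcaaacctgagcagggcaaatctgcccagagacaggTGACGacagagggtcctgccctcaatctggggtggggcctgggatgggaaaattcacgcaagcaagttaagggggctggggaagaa
These windows lie at chr2:122147437-122147686 on the plus strand for B2m, chr17:34000348-34000597 on the minus strand for H2-K1, chr17:35262844-35263093 on the plus strand for H2-D1 and chr17:34187306-34187555 on the plus strand for Tap1. In the B2m window the interferon, X2 and Y letters followed one another toward the start. H2-K1 and H2-D1 shared the order kappaB, interferon, X2 and Y, with a further Y match in H2-D1. Another listed H2-K1 promoter, not shown here, also held a further Y match, 6 to 2 bases before its start. The kappaB letters were found in 0.0852% of 32851 promoter windows of the same length, the interferon letters in 8.82%, the X2 letters in 17.8% and the Y letters in 33.8%. Of the 8 members with a listed promoter, 2 held the kappaB letters, 3 the interferon letters, 5 the X2 letters and 6 the Y letters. Tap1 and Psmb9 share their matches, since their windows overlap on opposite strands and the X2 and Y letters of each are the same bases read from either side. Neither Psmb8 nor Psmb10 held any of them in this window. RefSeq and GENCODE M21 starts can differ. The Psmb8 window (34197945-34198194) lies inside the GENCODE gene, which starts at 34197721, and the H2-D1 window lies inside its gene, which starts at 35262730. A match is a run of letters and not a measured binding site.

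In GENCODE M21 (GRCm38) 7 of the 10 genes lay on chromosome 17, within the mouse MHC or close to it. Tapbp (33915899-33929292, plus strand) and H2-K1 (33996017-34000347, minus strand) were followed by Psmb9 (34181987-34187764, minus), Tap1 (34187553-34197225, plus), Psmb8 (34197721-34201454, plus) and Tap2 (34203527-34216321, plus), with H2-D1 (35262730-35267499, plus) farther along. Psmb9 and Tap1 start beside each other on opposite strands and overlap at their first bases. B2m lay on chromosome 2 (122147686-122153083, plus), and Psmb10 (105935735-105938444, minus) and Nlrc5 (94434356-94527272, plus) on chromosome 8. All are protein-coding. Reads of this kit come from the 3′ end of a transcript, and the last 300 bases of H2-K1 and H2-D1 transcripts shared 23.6% and 34.7% of their stretches of 31 bases with other genes, mainly with each other. The counts of these heavy chains are therefore uncertain as a split between the 2 genes.

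The libraries held 18727 control and 13719 DKO cells after filtering, with medians of 4871 and 6900 unique molecular identifiers (UMIs) per cell, and 81 called barcodes occurred in both. Hemoglobin genes made up 28.5% of the UMIs in the control cells and 36.3% in the DKO cells. Clusters were named from marker genes into 13 classes, called "-like" here, and 1 cluster (cluster 9), led by Il1b, Stfa2l1 and Csf3r, stayed unnamed. Ddx41 had 2413 UMIs in the control cells and 916 in the DKO cells, a log2 ratio of -1.34, and Cgas had 1620 and 830 UMIs, a log2 ratio of -0.91. Both targets were thus lower in the library labelled DKO, although 3′ reads from outside the deleted parts remain possible. Levels are UMI counts scaled to 1000000 UMIs per class (CPM), and differences are log2 ratios of DKO over control with 1 count added to each sum. The 95% intervals reflect counting error alone. Each genotype had 1 library, so variation from mouse to mouse is unknown and no test between genotypes could be made.

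In the control marrow, B2m ran from 72.3 CPM in late erythroid-like cells (Poisson interval 69.3 to 75.4) to 2351 CPM in plasma cell-like cells (2254 to 2451). T or NK cell-like cells had 1473 CPM, dendritic-like cells 1362 CPM and macrophage-like cells 1149 CPM of B2m. Stromal-like, monocyte-like and B cell-like cells followed at 980, 952 and 937 CPM, with neighbors in this order not separated beyond their intervals. The cKit+ progenitor-like cells had 590 CPM, early erythroid-like cells 492 CPM and neutrophil-like cells 444 CPM, each apart from the next. The DKO marrow kept plasma cell-like and T or NK cell-like cells at the top, at 2921 and 1572 CPM. At the bottom, neutrophil-like cells (483 CPM) stood above early erythroid-like cells (274 CPM), the reverse of their order in the control.

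**Figure D1:**
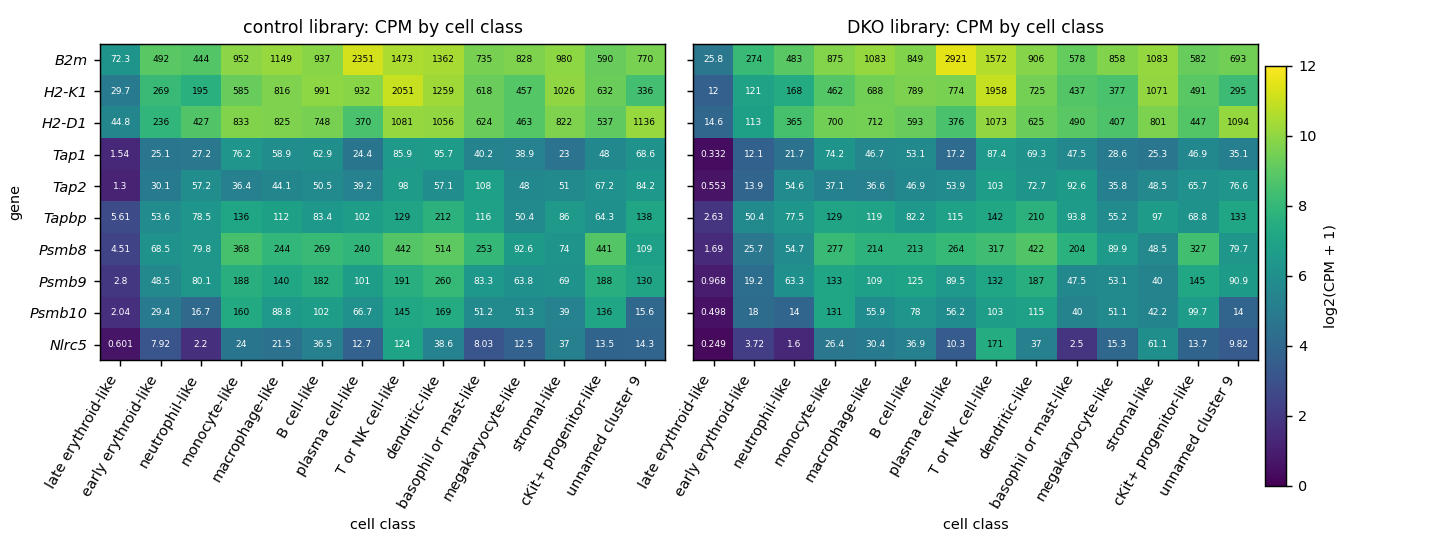
Level of the 10 genes (rows) in 13 cell classes and the unnamed cluster (columns), in CPM of the class, for the control library (left) and the DKO library (right), with color on a log2(CPM + 1) scale. Late erythroid-like cells are the lowest column of both panels, with B2m at 72.3 and 25.8 CPM.

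H2-K1 was highest in T or NK cell-like cells, at 2051 CPM (control) and 1958 CPM (DKO), and lowest in late erythroid-like cells, where 29.7 CPM in the control stood beside 432 UMIs in all in the DKO library. Nlrc5 was also highest in T or NK cell-like cells, at 124 CPM in the control, followed by dendritic-like (38.6 CPM), stromal-like (37.0 CPM) and B cell-like cells (36.5 CPM), whose intervals overlapped. In late erythroid-like cells of the control it had 18 UMIs in all, or 0.601 CPM. Over the 13 named classes of both libraries (26 points), Psmb8 and Psmb9 followed each other most closely among the members, with a Pearson correlation of 0.96 on log2(CPM + 5). Tap2 and Nlrc5 followed each other least, with 0.52. Among 10799 genes, those most like B2m over the same points were H2-K1 (0.93), Arf4 (0.92), Fbxw7 (0.91), Sdf4 (0.91) and Dnajc3 (0.90). For H2-K1 they were H2-T22 (0.94), mt-Nd4l, Cox16, H2-D1 (all 0.94) and Sec22a (0.93), for Psmb8 they were Zbtb8os (0.97), Sub1, Psmb9, Tmem192 and Jtb, and for Nlrc5 they were Gvin1 (0.91), Asb13, Cblb, H2-Q4 and Pogk. The points share 2 libraries, and the classes differ in depth and in hemoglobin.

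The class I genes were lower in the DKO library in early erythroid-like cells, the nucleated precursors marked by Klf1, Car1 and Hemgn. This class held 2416 control and 2083 DKO cells with 18558107 and 24167126 UMIs. B2m had 9139 UMIs in the control and 6614 in the DKO cells, or 492 and 274 CPM, a log2 ratio of -0.85 (interval -0.89 to -0.80). H2-K1 had 4992 and 2924 UMIs, a log2 ratio of -1.15 (-1.22 to -1.09), and H2-D1 had 4387 and 2742 UMIs, a log2 ratio of -1.06 (-1.13 to -0.99). The light chain gene and both heavy chain genes were thus 1.80-fold to 2.22-fold lower per UMI in the DKO cells.

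The peptide transporter showed differences of the same size in these cells. Tap1 had 466 and 292 UMIs, a log2 ratio of -1.05 (-1.27 to -0.84), and Tap2 had 558 and 337 UMIs, a log2 ratio of -1.11 (-1.31 to -0.91). Among the inducible proteasome subunits, Psmb8 was at 68.5 and 25.7 CPM (1272 and 621 UMIs), a log2 ratio of -1.41 (-1.56 to -1.28). Psmb9 had 900 and 464 UMIs, a log2 ratio of -1.34 (-1.50 to -1.17), and Psmb10 had 546 and 435 UMIs, a log2 ratio of -0.71 (-0.89 to -0.52). Most UMIs of these subunits came from cluster 18 of this class, given below. Nlrc5, the transactivator, had 147 and 90 UMIs, a log2 ratio of -1.08 (-1.48 to -0.70), at under 20 CPM. Tapbp stood apart from the rest, with 994 and 1218 UMIs, 53.6 and 50.4 CPM and a log2 ratio of -0.09 whose interval held 0 (-0.21 to 0.03).

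Of the 9 members with at least 20 CPM in either library, 6 were at least 2-fold lower in the DKO early erythroid-like cells, against 3.52% of the 5201 genes at that level. The median of these 9 was -1.06, and the median of all those genes was -0.10. Tap1, Tap2, Psmb9 and Psmb10 reached 20 CPM in the control only, at 25.1, 30.1, 48.5 and 29.4 CPM. Their DKO levels were 12.1, 13.9, 19.2 and 18.0 CPM. A level reached in the control alone favors a lower ratio, among the members as among the 5201 genes. Scaled to non-hemoglobin UMIs, 3 of the 9 were at least 2-fold lower and their median was -0.93. Counted per cell rather than per UMI, the gap was smaller for B2m, at 3.78 UMIs per control cell and 3.18 per DKO cell, since the DKO cells were deeper, with medians of 10468 against 6109 UMIs in this class. In cells thinned to 2000 UMIs each, B2m was seen in 49.5% of 1745 control cells and 29.4% of 1533 DKO cells, after 671 and 550 shallower cells had been left out. Unthinned, the shares were 64.6% and 54.1%.

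Early erythroid-like cells came from 5 clusters, and B2m, H2-K1 and H2-D1 had log2 ratios below 0 in each of them. Cluster 18, led by Car1, Angpt1 and Mecom, had the lowest hemoglobin share and high class I levels, with B2m at 782 and 562 CPM in 327 control and 155 DKO cells, a log2 ratio of -0.48 (-0.55 to -0.41). Psmb8 in this cluster was at 216 and 116 CPM, a log2 ratio of -0.89 (-1.04 to -0.75). Cluster 18 held 1143 of the 1272 Psmb8 UMIs of the class in the control and 574 of 621 in the DKO. For Psmb9 it held 701 of 900 and 371 of 464, and for Psmb10 436 of 546 and 376 of 435. In cluster 12, led by Hemgn, the B2m ratio was -0.91 (-0.98 to -0.85), in cluster 6 it was -1.13 (-1.33 to -0.93), in cluster 13 it was -0.81 (-1.34 to -0.30) and in cluster 14 it was -0.26, with an interval that held 0 (-0.58 to 0.04). Tapbp lay between -0.29 and 0.09 in the 5 clusters, with 0 inside every interval. Cluster 18 gave 5299188 of the control UMIs and 4949186 of the DKO UMIs of the class, a smaller share in the DKO cells. With the DKO clusters weighted to the control mix, an alternative added after the data had been seen, the median of the members was -0.79.

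Erythroid cells were then matched on the share of hemoglobin in their own UMIs, which rises as they mature. In cells with under 15% hemoglobin (1251 control and 800 DKO cells) the B2m ratio was -0.54 (-0.60 to -0.49), the H2-K1 ratio -0.79 (-0.86 to -0.72) and the H2-D1 ratio -0.71 (-0.80 to -0.63). Psmb8 was at -0.96 (-1.11 to -0.82), Psmb9 at -0.88 (-1.06 to -0.71), Psmb10 at -0.22 (-0.41 to -0.02) and Tapbp at -0.02 (-0.20 to 0.16). No member was 2-fold lower there, where 2.27% of all genes were. In cells with 15% to 40% hemoglobin, H2-K1 was at -1.16 (-1.39 to -0.94), B2m at -0.71 (-0.80 to -0.61), H2-D1 at -0.93 (-1.09 to -0.76) and Psmb8 at -2.01, from 97 and 28 UMIs (-2.71 to -1.43). In that range 2 of 5 members were at least 2-fold lower, against 1.51% of all genes. Psmb8 reached 20 CPM there in the control only, which favors a lower ratio.

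Between 40% and 75% hemoglobin the light and heavy chains were 2.12-fold to 2.75-fold lower, with B2m at -1.09 (-1.19 to -0.98), H2-K1 at -1.11 (-1.36 to -0.87) and H2-D1 at -1.46 (-1.62 to -1.30), while Tapbp was at 0.07 (-0.14 to 0.29). These 3 of 4 members past 2-fold compare with 2.17% of all genes. From 75% to 90%, B2m was at -0.96 (-1.14 to -0.80), H2-K1 at -1.26 (-1.55 to -0.99) and H2-D1 at -1.17 (-1.39 to -0.95), with 2 of 3 members past 2-fold and 6.15% of all genes. At 90% or more, all 3 members at 20 CPM were past 2-fold, as were 20.8% of the 375 genes at that level, and B2m was at -1.74 (-1.998 to -1.49) from 280 and 242 UMIs. From 40% upward H2-K1 reached 20 CPM in the control only, as did B2m at 90% or more, which favors a lower ratio. The medians of all genes were 0.06, 0.03, 0.12, 0.37 and -0.27 in these 5 ranges, in order of hemoglobin. Many cells lay close to a border of these ranges, as 32.8% of the control and 30.1% of the DKO erythroid cells were within 2 percentage points of one.

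Scaled as CPM of the non-hemoglobin UMIs, B2m in the control was at 687 in the lowest hemoglobin range, at 605, 540 and 441 in the next ones and at 462 in the highest. The DKO values in the same order were 472, 372, 250, 209 and 156, below the control in every range and with no overlap of the intervals. H2-K1 behaved otherwise, with 502, 138, 98.4, 196 and 312 in the control and 291, 62.0, 44.7, 75.8 and 145 in the DKO library, lowest in the middle range of both. Tapbp was nearly level between the libraries in the first 3 ranges, at 57.8 and 57.1, 79.0 and 72.5, and 82.3 and 85.1. The values in the ranges with most hemoglobin rest on few non-hemoglobin UMIs, and the free RNA limits given below apply to them.

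**Figure D2:**
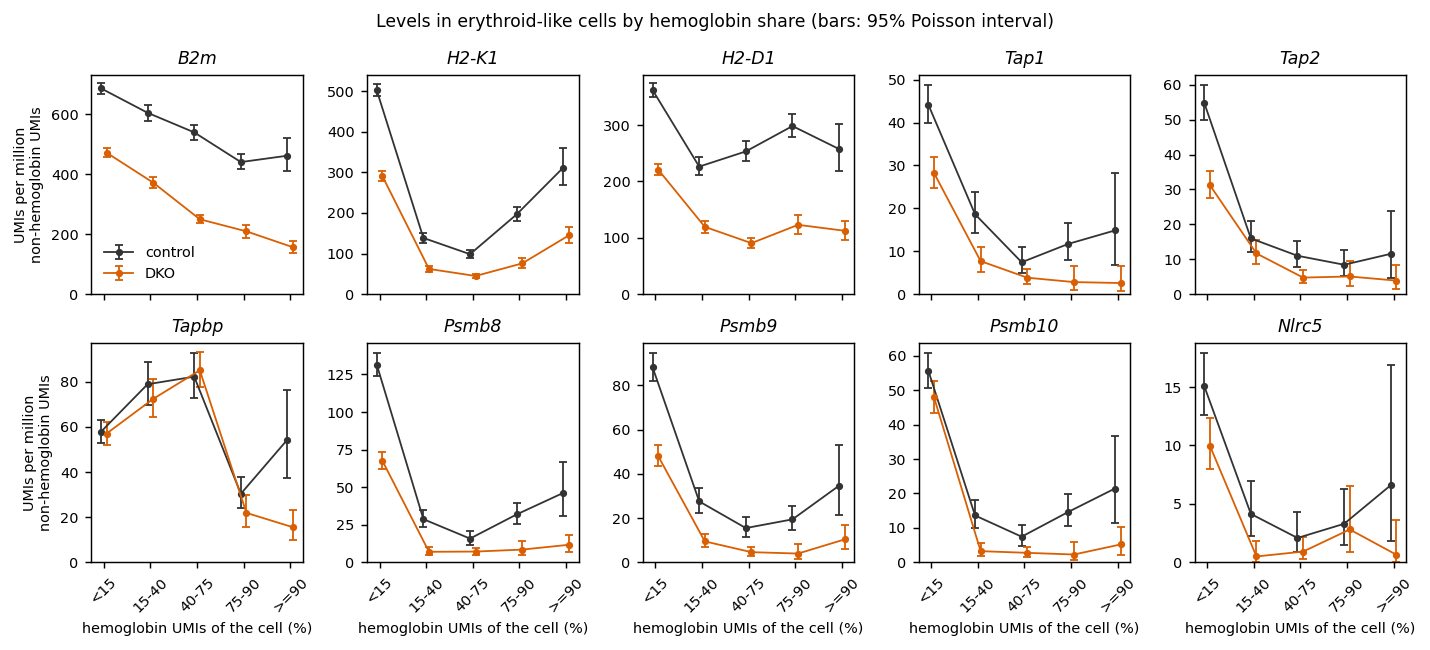
Level of each gene in erythroid-like cells, as CPM of the non-hemoglobin UMIs (vertical axis), over 5 ranges of the cell's hemoglobin share (horizontal axis), for control (black) and DKO (orange), with 95% Poisson intervals. B2m runs from 687 to 462 in the control and from 472 to 156 in the DKO cells, and Tapbp overlaps between the libraries in the first 4 ranges.

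In late erythroid-like cells (5537 control and 4408 DKO cells, 85.0% and 87.7% hemoglobin) the light and heavy chains were low in both libraries and lower in the DKO. B2m had 2165 and 931 UMIs, or 72.3 and 25.8 CPM, a log2 ratio of -1.49 (-1.60 to -1.38). H2-K1 had 889 and 432 UMIs, a log2 ratio of -1.31 (-1.48 to -1.14), and H2-D1 had 1343 and 529 UMIs, a log2 ratio of -1.61 (-1.76 to -1.47). Per cell, B2m was at 0.391 and 0.211 UMIs.

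These 3 were the members with at least 20 CPM, and all 3 were past 2-fold, as were 14.0% of the 776 genes at that level, whose median was -0.30. Scaled to non-hemoglobin UMIs the B2m ratio was -1.20, the H2-K1 ratio -1.02 and the H2-D1 ratio -1.33, against a median of -0.01 for all genes. The other members were sparse, with 168 and 95 UMIs of Tapbp, 135 and 61 of Psmb8, 84 and 35 of Psmb9, 61 and 18 of Psmb10, 46 and 12 of Tap1, 39 and 20 of Tap2, and 18 and 9 of Nlrc5. Tapbp, nearly level in early erythroid-like cells, was lower in the DKO here, at 5.61 (4.79 to 6.52) and 2.63 CPM (2.13 to 3.21). In cluster 2, the largest of the 3 late clusters and led by Bpgm and Hba-a2, B2m was at -1.96 (-2.17 to -1.77). In cluster 3, led by Isg15, it was at -1.35 (-1.61 to -1.11), and in cluster 24, led by Tmcc2, at -1.28 (-1.44 to -1.12).

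Marker genes of other cell types were also lower in the DKO erythroid-like cells. Of 89 markers of the 11 other classes, 85 were lower in the DKO early erythroid-like cells, and 85 were lower in the DKO late erythroid-like cells, where 87 had a UMI in either library. The share of all genes lower in the DKO was not counted. Medians of all genes at 20 CPM or more were -0.10 in early and -0.30 in late erythroid-like cells. The summed neutrophil markers, which include S100a8, Camp and Ltf, were at 2330 and 1076 CPM in early erythroid-like cells, a log2 ratio of -1.12, and at 1040 and 452 CPM in late erythroid-like cells, a log2 ratio of -1.20. In neutrophil-like cells themselves the sums were 313572 and 276610 CPM. The other 10 lists had summed log2 ratios from -1.65 (macrophage) to -0.61 (plasma cell) in early and from -2.27 (megakaryocyte) to -0.93 (stromal) in late erythroid-like cells. Every marker had a UMI in the control early cells, while the DKO early cells had none of Klrb1c, Ncr1, Siglech, Xcr1, Klk1 and Cdh5. In the late cells Tnfrsf17 and Xcr1 were at 0 in both libraries, and Cd200r3 and Rspo2 in the DKO. Ptprc, the leukocyte antigen CD45, had log2 ratios of -0.98 and -1.41 in early and late erythroid-like cells.

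An upper limit on free RNA was set from genes that erythroid cells should lack. With the mean of all cells as the profile of free RNA, at most 3.14% of the UMIs in control early erythroid-like cells and 1.42% in the DKO ones were free, which could supply 3.61% and 2.18% of the B2m UMIs and 7.87% and 5.02% of the Psmb8 UMIs. In late erythroid-like cells the limits were 1.44% and 0.777% of UMIs, 11.3% and 12.7% of B2m, 20.8% and 16.8% of H2-K1 and 55.0% and 41.9% of Psmb8. With the profile of empty droplets, known only for the control, the limits for control late erythroid-like cells were 26.7% of B2m, 69.1% of H2-K1, 26.6% of H2-D1 and 77.0% of Psmb8. Subtracting the empty-droplet profile from the control and the all-cell profile from the DKO brought the H2-K1 ratio to 0.09 and the B2m ratio to -1.26. With the all-cell profile in both libraries, added after the data had been seen, they were -1.25 and -1.52. The early erythroid-like median was -1.04 and -1.05 under these subtractions. In thinned late erythroid-like cells B2m was seen in 11.9% of control and 3.89% of DKO cells, and S100a8 in 40.1% and 19.2%, so the share of cells with B2m there was below that of a neutrophil gene. The part of RNA from other cells in the early and late erythroid differences was not otherwise tested.

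Outside the erythroid classes no member was at least 2-fold lower in the DKO library among those at 20 CPM or more. The share of all genes past 2-fold was 0.505% in neutrophil-like, 0.557% in monocyte-like, 1.49% in macrophage-like, 0.458% in B cell-like, 1.64% in T or NK cell-like, 1.02% in dendritic-like and 0.320% in cKit+ progenitor-like cells. It was 17.7% in plasma cell-like, 2.97% in basophil or mast-like, 3.81% in megakaryocyte-like and 2.96% in stromal-like cells and 3.07% in the unnamed cluster. The medians of the members were -0.22 in neutrophil-like, -0.19 in monocyte-like, -0.29 in B cell-like and -0.27 in cKit+ progenitor-like cells, where the medians of all genes were 0.16, 0.10, 0.11 and 0.11. Member medians were -0.23 in macrophage-like, -0.34 in basophil or mast-like and -0.18 in megakaryocyte-like cells and -0.17 in the unnamed cluster. Those of all genes there were 0.11, 0.02, 0.16 and 0.03. Dendritic-like cells had the lowest median of the 12 groups, -0.46, against 0.15 for all genes. The medians of the members were above 0 in stromal-like (0.10), plasma cell-like (0.03) and T or NK cell-like cells (0.01). Those of all genes there were 0.38, -0.28 and 0.13. Scaled to non-hemoglobin UMIs, the medians of the members were -0.16, -0.07 and 0.02, beside 0.12, -0.37 and 0.14 for all genes.

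**Figure D3:**
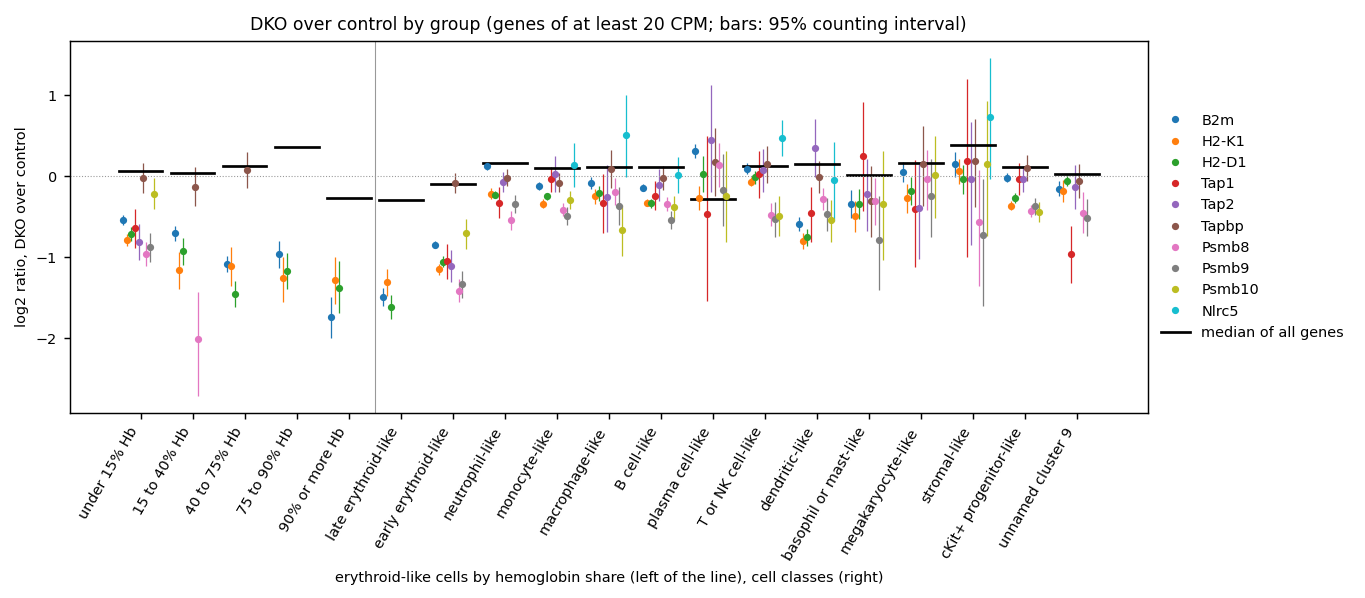
Log2 ratio of DKO over control (vertical axis) for each member with at least 20 CPM in either library, in 5 hemoglobin ranges (Hb) of erythroid-like cells and in 13 classes and the unnamed cluster, with 95% counting intervals and a black bar at the median of all genes. In early erythroid-like cells 8 of 9 members lie between -1.41 and -0.71 and Tapbp at -0.09.

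Outside the erythroid classes the B2m ratio ran from -0.59 in dendritic-like to 0.31 in plasma cell-like cells, with an interval below 0 in 6 of the 12 groups and above 0 in 3. In neutrophil-like cells it had 8684 and 9068 UMIs, a log2 ratio of 0.12 (0.08 to 0.16), and it was above 0 in each of the 4 neutrophil clusters, from 0.08 to 0.16. In cKit+ progenitor-like cells it was at -0.02 (-0.07 to 0.04), in monocyte-like cells at -0.12 (-0.17 to -0.08), in B cell-like cells at -0.14 (-0.19 to -0.10) and in basophil or mast-like cells at -0.35 (-0.52 to -0.18). Dendritic-like cells, here led by the plasmacytoid genes Siglech and Bst2, were lower, with B2m at 1362 and 906 CPM, a log2 ratio of -0.59 (-0.68 to -0.50), H2-K1 at -0.80 (-0.90 to -0.70) and H2-D1 at -0.75 (-0.86 to -0.65). Tapbp was at -0.01 in these cells (-0.21 to 0.19), and Psmb8 was at -0.28 (-0.42 to -0.15).

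Small decreases of the heavy chains and of the inducible proteasome subunits recurred over cell types. Of the 12 groups outside the erythroid classes, Psmb9 was below 0 in 12, and Psmb8, H2-K1 and H2-D1 in 11 each. Among the 8 members at 20 CPM or more in all 12 groups these 4 were below 0 in at least 11, as were 11.7% of 2436 genes. B2m was below 0 in 7 and Tapbp in 6. In T or NK cell-like cells Psmb8 was at -0.48 (-0.62 to -0.34), Psmb9 at -0.53 (-0.75 to -0.31) and Psmb10 at -0.49 (-0.74 to -0.25), while Tap1 was at 0.03 (-0.27 to 0.31) and Nlrc5 at 0.47 (0.25 to 0.69) from 368 and 323 UMIs. The Nlrc5 level and the levels of the proteasome subunits thus differed in opposite directions in that class.

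Each inducible proteasome subunit was set against the constitutive subunit whose place it takes, using UMIs summed over the cells of a class. Such a share does not depend on the class total but does depend on the mix of cells. In early erythroid-like cells Psmb8 made up 32.7% of the UMIs of Psmb8 and Psmb5 in the control (exact interval 31.2% to 34.2%) and 18.9% in the DKO (17.6% to 20.3%). Psmb9 made up 24.9% and 15.4% of the UMIs of Psmb9 and Psmb6, and Psmb10 made up 23.5% and 17.0% of those of Psmb10 and Psmb7. No pair of these intervals overlapped. The Psmb8 share differed widely between the clusters of this class and was lower in the DKO within both clusters with the most UMIs, at 45.6% (43.7% to 47.6%) and 30.4% (28.3% to 32.5%) in cluster 18 and at 5.96% (4.67% to 7.49%) and 3.08% (2.19% to 4.199%) in cluster 12. In late erythroid-like cells the Psmb8 shares were 42.1% (36.6% to 47.7%) and 32.6% (26.0% to 39.8%), and the Psmb9 shares were 28.8% (23.6% to 34.3%) and 21.6% (15.5% to 28.7%), each with overlapping intervals. The Psmb10 shares there, 23.4% (18.4% to 29.0%) and 9.68% (5.84% to 14.9%), did not overlap and rest on 61 and 18 UMIs of Psmb10.

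Outside the erythroid classes the Psmb8 intervals of the libraries overlapped in all 12 groups. The Psmb8 share was 63.7% in the control and 62.3% in the DKO in monocyte-like cells, 78.2% and 78.9% in T or NK cell-like cells and 55.3% and 55.5% in cKit+ progenitor-like cells, and Psmb5 was lower along with Psmb8 in these classes. The Psmb9 share did not overlap in B cell-like cells, at 53.7% (51.9% to 55.5%) and 48.5% (46.4% to 50.5%), and overlapped in the other groups. The Psmb10 share was lower in the DKO without overlap in B cell-like cells, at 55.7% (53.3% to 58.1%) and 47.1% (44.5% to 49.7%), in dendritic-like cells, at 68.1% (64.6% to 71.5%) and 58.7% (52.8% to 64.5%), and in cKit+ progenitor-like cells, at 56.9% (55.2% to 58.6%) and 50.04% (47.4% to 52.7%).

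**Figure D4:**
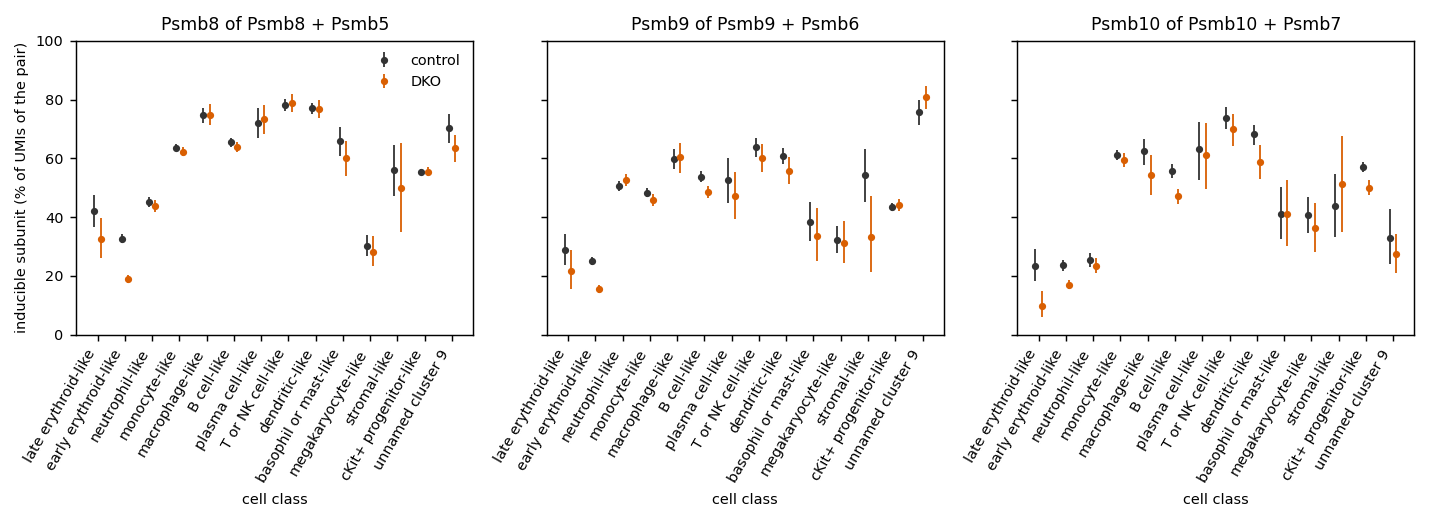
Inducible subunit as percent of the UMIs of the inducible and constitutive pair (vertical axis) by cell class for Psmb8 with Psmb5, Psmb9 with Psmb6 and Psmb10 with Psmb7, control in black and DKO in orange, with exact binomial 95% intervals. Early erythroid-like cells show the gap in all 3 panels, 32.7% against 18.9% for Psmb8.

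Other genes of the pathway were taken from fixed lists. Of 16 further class I or class I-like heavy chain genes, 4 had at least 20 CPM in early erythroid-like cells, with a median log2 ratio of -0.98, and 2 of these were past 2-fold. H2-Q7 was at -1.45 (-1.63 to -1.28) and H2-T22 at -1.33 (-1.58 to -1.08), while H2-T23, which encodes the Qa-1 chain seen by NK cells, was at -0.64 (-0.75 to -0.53) and H2-T24 at -0.47 (-0.65 to -0.30). The Q and T genes are close relatives of each other and of H2-K1 and H2-D1, and their counts share the same uncertainty. Of 9 helpers of peptide loading, trimming and folding, 7 were at that level, with a median of 0.10 and none past 2-fold. Calr, the chaperone calreticulin, was at -0.17, Canx, calnexin, at 0.10 and Pdia3, the thiol oxidoreductase of the loading complex, at -0.24. The chaperones of the loading complex thus stood near the median of all genes, as Tapbp did.

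The constitutive proteasome subunits and the PA28 activator had a median of -0.41 over 6 genes in early erythroid-like cells, none of them past 2-fold. Psme1 and Psme2, the subunits of the interferon-raised PA28 activator, were at -0.67 (-0.76 to -0.58) and -0.62 (-0.74 to -0.51), and Psme3, which forms a separate nuclear activator, was at 0.29 (0.21 to 0.37). Psmb5 was at -0.36, Psmb6 at -0.47 and Psmb7 at -0.12. Of 15 transcription regulators of class I genes, 9 were at 20 CPM or more, with a median of -0.31 and none past 2-fold. Irf9, an interferon regulatory factor, was at -0.46, Irf2 at -0.52 and Nfkb1, an NF-kB subunit, at -0.73, whereas the CCAAT-binding subunits Nfya, Nfyb and Nfyc were at 0.32, 0.14 and 0.23. Irf1, an interferon-raised activator, had 128 and 67 UMIs, under 20 CPM, and a log2 ratio of -1.30 (-1.76 to -0.88). Isg15, an interferon-raised ubiquitin-like protein, was at -1.25 in early and -1.52 in late erythroid-like cells.

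In late erythroid-like cells few of these genes reached 20 CPM. H2-T23 was at 35.8 and 26.6 CPM, a log2 ratio of -0.43 (-0.55 to -0.30), Calr at -0.19, Hspa5, the main chaperone of the endoplasmic reticulum, at 0.00 (-0.12 to 0.11) and Psme3 at 0.13 (0.08 to 0.18).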

How the data were processed

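Bone marrow of 1 control and 1 DKO mouse was measured with 1 library each. The deposited matrices hold raw UMI counts, made by the authors with Cell Ranger (version 7.1.0, build mm10, per the submitters' processing notes), with all barcodes for the control and called cells for the DKO. The annotation release is not given in the sources used here.

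In the control, barcodes above a UMI threshold (the 99th percentile of the top 3000, divided by 10) counted as cells, as did smaller ones from 500 UMIs where a Monte Carlo test (10000 draws, adjusted p of at most 0.01) set them apart from barcodes with 100 UMIs or fewer. Mitochondrial shares over 20% and Scrublet doublets (threshold 0.226, the automatic one of the DKO library, used in both, removing 351 and 208 cells) were left out. Clustering used 2000 variable genes without the members, Ddx41 and Cgas, 30 principal components, 15 neighbors and Leiden resolution 1. Clusters were named from marker lists, and names may differ from the study's. The members are the named genes, beside Ddx41, Cgas, fixed lists, the genes most like 4 members, and free-RNA gauges. The members and lists were chosen with earlier results of these data known.

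Counts were summed per class and library, over 119247293 control and 114664975 DKO UMIs, and compared as log2 ratios of CPM with 1 count added and exact conditional binomial 95% intervals. Levels carry Poisson intervals and shares Clopper-Pearson intervals. Scripts were checked on simulated data. Alternatives covered scaling, filters, clustering, doublets, free RNA and cell mix, 3 of them added after the data had been seen. Software was scanpy 1.11.5, scipy 1.17.1, numpy 2.4.6 and matplotlib 3.10.9 under Python 3.11.15. Promoter sequences came from RefSeq (GRCm38.p6), gene positions from GENCODE M21, which held 32235 of the 32285 gene identifiers. The motif letters were set by hand.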

Additional observations from a re-analysis of the deposited data

Results flagged for a closer look

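B2m was lower in the DKO library in early and late erythroid-like cells but higher, with an interval above 0, in 3 other classes, with a log2 ratio of 0.12 in neutrophil-like cells, 0.31 in plasma cell-like cells (67 control and 54 DKO cells) and 0.094 in T or NK cell-like cells. The medians of all genes in these classes were 0.16, -0.28 and 0.13. In neutrophil-like and T or NK cell-like cells B2m thus stood below the median gene. The B2m ratio was also above 0 in stromal-like (0.15) and megakaryocyte-like cells (0.05), where the interval held 0 and the ratio was below 0 when scaled to non-hemoglobin UMIs. These opposite directions drew attention. With 1 library per genotype the difference between classes was not tested.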

How the results depend on the processing

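Of 117 alternative values over 8 results, 99 moved by less than the counting interval of the main value. Another 17 moved by more than that, toward or away from 0, and kept their sign, and 1 reversed. The late erythroid-like median (-1.49) became -1.20 without hemoglobin in the scaling, -1.31 as a mean over cells, -1.22 with a 50% hemoglobin border and -1.33 with size factors, and since B2m is that median, its own ratio took the same values, and -1.26 with free RNA subtracted. H2-K1 in late erythroid-like cells (-1.31) became -1.02 without hemoglobin. It reversed to 0.0883 with the empty-droplet profile subtracted from the control and the all-cell profile from the DKO. B2m in cells with 90% or more hemoglobin (-1.74) became -1.24 with free RNA subtracted. The early erythroid-like median (-1.06) became -0.79 with doublets kept, -0.81 at Leiden resolution 2, -0.79 with the DKO clusters weighted to the control mix and -0.91 with the 50% border. The neutrophil-like median (-0.22) became -0.098 at resolution 2 and -0.38 with size factors. The causes of these shifts were not tested. Monocyte-like and B cell-like medians stayed within their intervals under all 14 alternatives each. No paired analysis was possible because each group has 1 library.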

Other observations

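The unnamed cluster 9, led by Il1b, Stfa2l1 and Csf3r, held 899 control and 1132 DKO cells and had high H2-D1 levels, at 1136 CPM (control) and 1094 CPM (DKO), or -0.05 as a log2 ratio (-0.13 to 0.02). Tap1 was the member with the lowest ratio there, with 154 and 125 UMIs and a log2 ratio of -0.97 (-1.32 to -0.62), whereas Tap2 was at -0.14 (-0.41 to 0.14). Tap1 was singled out after its values had been seen.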
